A study of Homo sapiens with 4 samples.

Results

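The genes described here supply peptides to MHC class I molecules, and 10 of them were followed in OVCAR5, a human ovarian carcinoma cell line. They were taken by gene symbol from the deposited features, and all 10 of the 10 symbols were found once among 36602 genes. They comprise the 3 inducible catalytic subunits of the proteasome (PSMB8, PSMB9 and PSMB10), both subunits of its PA28 activator (PSME1 and PSME2), both chains of the peptide transporter (TAP1 and TAP2), the loading protein tapasin (TAPBP) and both trimming aminopeptidases (ERAP1 and ERAP2). The cells had been left unstimulated or given supernatant from tumor cells cultured with T cells, undiluted or diluted 5, 25, 125 or 625 times, for 2, 6, 12 or 24 h. These 24 conditions, with 1 culture each, were marked with pairs of hashtag antibodies and read as 1 pool, cell by cell. Reads came from the 3′ ends of transcripts caught in droplets (10x Genomics Chromium). The pool has 2 gene expression and 2 hashtag records. Within each kind the titles carry the same index and differ in the leading number, so that separate libraries are not established. Which tag pair stands for which condition is not known here. Each of the 24 tag pairs in use is therefore called a hashtag sample and is named by its tags, no sample is given a dose or a time, and no groups are compared. The hashtag samples share doses and times and are not replicates, so the values below carry counting intervals and no p-values.

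Cells cut cytosolic proteins into peptides with the proteasome, whose core holds 3 catalytic subunits encoded by PSMB5, PSMB6 and PSMB7. Under interferon gamma these are replaced in newly built particles by PSMB8, PSMB9 and PSMB10 respectively, which gives the immunoproteasome, and the PA28 cap opens the core. TAP1 and TAP2 form the pump that carries the peptides into the endoplasmic reticulum, tapasin holds empty class I molecules next to the pump, and ERAP1 and ERAP2 shorten the peptides to their final length. PSMB8, PSMB9, TAP1, TAP2 and TAPBP all lie in the MHC region of chromosome 6.

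Interferon signalling reaches such genes through short promoter elements, of which the interferon-stimulated response element is the best known. RefSeq promoter windows on GRCh38.p14, of 250 bases before and 50 bases from a transcript start on, were found for 10 of 10 genes (14 windows). The letters GAAANNGAAA, the core of that element with N for any base, were searched on both strands, and overlapping matches were counted. They stood in 1 or more windows of 9 of the 10 genes, and in 3.57% of all 35116 windows (4.38% of 27305 symbols). A match describes letters and not a bound site. The 30 bases around each match are shown on the strand that reads GAAANNGAAA, with the matched letters in capitals, because 9 of the 10 genes hold such letters near a start.
PSMB8, chr6:32844032-32844061, plus strand: aggaggaagtGAAAGCGAAAgccacagatc
PSMB10, chr16:67936852-67936881, minus strand: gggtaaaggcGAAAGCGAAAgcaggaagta
PSME1, chr14:24136189-24136218, minus strand: accgcgaaggGAAAGCGAAAgcggtagggc
PSME2, chr14:24146619-24146648, minus strand: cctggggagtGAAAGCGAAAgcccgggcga
TAP1, chr6:32853816-32853845, plus strand: tttagggGAAAGCGAAATCGAAAgcggccg
TAP2, chr6:32838778-32838807, minus strand: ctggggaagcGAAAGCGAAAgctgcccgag
TAPBP, chr6:33314076-33314105, minus strand: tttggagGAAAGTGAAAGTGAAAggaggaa
ERAP1, chr5:96807924-96807953, plus strand: ccccaggaccGAAAGTGAAAgtggagcccg
ERAP2, chr5:96876460-96876489, plus strand: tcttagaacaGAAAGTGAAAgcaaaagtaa

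TAP1 and TAPBP each held 2 overlapping matches, and the other 7 genes held 1. The match began 134 bases before the start in TAP1, 58 bases before it in TAP2 and 20 bases before it in TAPBP. Those of PSMB8, PSME1 and ERAP1 lay within a few bases of the start. PSMB9 had no match in its own window. Its start at position 32854192 faces away from the TAP1 start at position 32853704, with 488 bases between them, and the double match of TAP1 lies in that interval, 354 bases from the PSMB9 start. The next stretch shows 96 bases of the TAP1 promoter on the minus strand, with the double match (read here from the other strand) and a match to the NF-κB consensus 72 bases before the start in capitals. A second match to that consensus lies 23 bases after the start, outside the stretch.
TAP1, chr6:32853755-32853850, minus strand: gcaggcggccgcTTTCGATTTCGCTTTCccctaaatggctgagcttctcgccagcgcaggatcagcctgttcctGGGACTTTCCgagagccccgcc
The NF-κB consensus, searched by name on both strands, also had a match in the windows of TAPBP and ERAP1. It was thus found for 3 of 10 genes, against 13.3% of symbols (11.3% of all windows). TTCNNNGAA, the core of the gamma-activated site, was found in windows of 2 of 10 genes, PSMB8 and a second TAP1 start. Its shares were 9.38% of symbols and 7.66% of all windows. It reads alike on both strands. Of the constitutive catalytic subunits only PSMB5 had a window. It held no match to GAAANNGAAA, but it held TTCNNNGAA 158 and 15 bases before its start. Among the 9 matched of 11 other 20S core subunits, 2 had a match to GAAANNGAAA and 1 had a match to TTCNNNGAA.

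The pool gave 5298 filtered cells with a hashtag sample, 137 to 272 a sample, and 1863154 to 3904112 UMIs a sample (UMIs are unique molecular identifiers, counted once per captured RNA molecule). Levels are UMIs of a gene per 1000000 UMIs of the sample (CPM), and 3 counts correspond to 0.768 to 1.61 CPM. Intervals are 95% intervals that cover counting error only. Those of a ratio between the highest and lowest sample take these samples as given, so the picking of extremes is not covered. Spread between cells beyond Poisson sampling is not covered either. For orientation the samples were also described by 2 sums of CPM. The interferon list is the sum of 11 interferon-induced genes, such as IRF1, GBP1, CXCL10, IDO1 and WARS (283 to 16665 CPM), and the NF-κB list that of NFKBIA, TNFAIP3, NFKB2, RELB, BIRC3, ICAM1, CXCL8, CCL20, TRAF1 and NFKBIE (136 to 3727 CPM). T cell markers were at or near 0 (CD3E, PTPRC, CD2 and CD3G at 0 in every sample, the sum of 7 markers at most 1.07 CPM). The 5 myeloid markers summed to at most 5.23 CPM and the 4 fibroblast markers to at most 1.59 CPM. Of 8 epithelial markers 6 had a mean of 20 CPM or more, the highest being the keratin KRT18 (931 to 2002 CPM). The others were CLDN7 (2.94 to 19.9 CPM) and MUC1, which was near 0 (at most 1.99 CPM). HTO3/HTO9, the highest sample for 7 of the members, was also the shallowest by median (9389 UMIs a cell), had the largest median share of mitochondrial UMIs (13.8%) and the lowest sum of 8 epithelial markers (1907 CPM, against up to 3744 CPM). Their part in its values was not tested. Leaving this sample out brought the widest contrast to 9.23 for PSMB8, 20.8 for PSMB9, 4.43 for PSME1 and 6.09 for TAPBP.

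The inducible catalytic subunits were lowest as a group at 178 CPM in HTO1/HTO10 and highest at 1688 CPM in HTO3/HTO9, 9.46-fold apart (8.67 to 10.3). PSMB9 (ENSG00000240065, chromosome 6, 32844136 to 32859585 in GENCODE 29 on GRCh38), which takes the place of PSMB6, had its lowest level in HTO2/HTO9 (37.4 CPM), a median of 243 CPM and its highest level in HTO3/HTO9 (912 CPM). That is a ratio of 24.4 (20.3 to 29.5). PSMB8 (ENSG00000204264, chromosome 6, 32840717 to 32844703), which replaces PSMB5, had 50.6 CPM in HTO1/HTO10, a median of 163 CPM and 531 CPM in HTO3/HTO9, 10.5-fold apart (8.92 to 12.4). PSMB10 (ENSG00000205220, chromosome 16, 67934502 to 67937087), which replaces PSMB7, ranged least, from 77.5 CPM in HTO4/HTO10 through a median of 131 CPM to 285 CPM in HTO5/HTO9, 3.68-fold apart (3.22 to 4.22). The intervals of the 3 subunits did not overlap. PSMB9 fell into separate ranges: 9 hashtag samples (HTO1 to HTO7 with HTO10, HTO4/HTO8 and HTO2/HTO9) had at most 90.2 CPM, and the other 15 had at least 217 CPM. The same 9 samples had the lowest PSMB8, at most 81.2 CPM against at least 144 CPM. TAP1 lies within the PSMB9 gene model on the opposite strand, PSMB8 overlaps its antisense gene PSMB8-AS1, PSME2 overlaps RNF31 and ERAP1 overlaps CAST. Whether reads were counted by strand is not stated, so that reads of such neighbours may be shared.

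**Figure D1:**
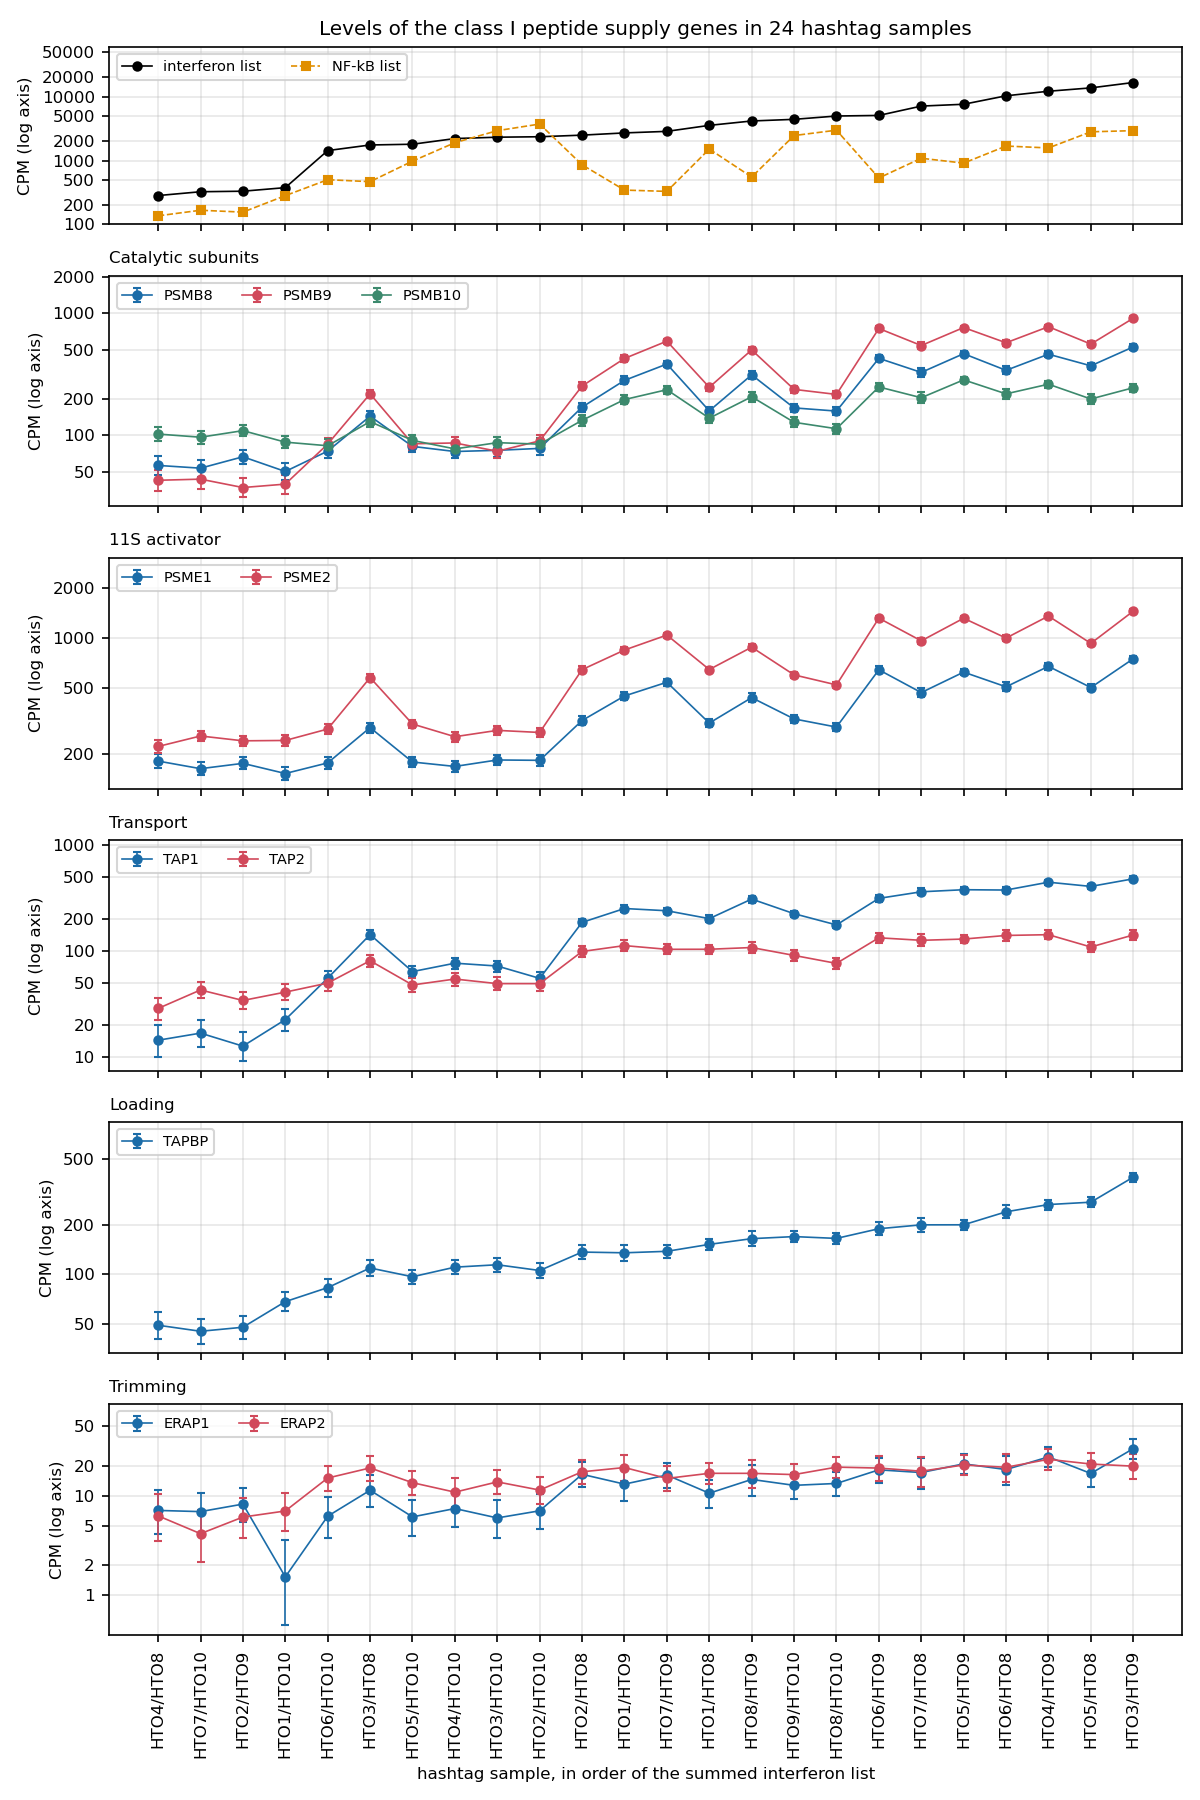
Levels of the 10 genes (y axes, CPM on log axes) in the 24 hashtag samples (x axis, ordered by the summed interferon list shown in the top panel with the NF-κB list). Bars are 95% Poisson intervals. TAPBP rises almost steadily along the order from 45.2 to 390 CPM, while PSMB8, PSMB9, PSMB10, PSME1 and PSME2 step up and down between neighbours.

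The PA28 subunits ranged less than PSMB8 and PSMB9 and moved together. PSME2 (ENSG00000100911, chromosome 14, 24143362 to 24147570), the beta subunit, had 222 CPM in HTO4/HTO8, a median of 623 CPM and 1455 CPM in HTO3/HTO9, 6.55-fold apart (5.98 to 7.19). PSME1 (ENSG00000092010, chromosome 14, 24136158 to 24138967), the alpha subunit, had 153 CPM in HTO1/HTO10, a median of 313 CPM and 751 CPM in HTO3/HTO9, 4.92-fold apart (4.46 to 5.44). Both proteins sit in 1 ring, and the PSME2 to PSME1 ratio of UMIs moved only from 1.22 (1.08 to 1.39) in HTO4/HTO8 to 2.11 (2.01 to 2.22) in HTO5/HTO9. PSME2 has processed pseudogenes, to which some of its reads could have been assigned.

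The transporter chains differed more from each other than the activator subunits did. TAP1 (ENSG00000168394, chromosome 6, 32845209 to 32853978) had the widest range of the 8 members with a mean of 20 CPM or more, from 12.6 CPM in HTO2/HTO9 through a median of 194 CPM to 482 CPM in HTO3/HTO9, 38.4-fold apart (28.1 to 53.8). TAP2 (ENSG00000204267, chromosome 6, 32821833 to 32838780) had 28.6 CPM in HTO4/HTO8, a median of 94.8 CPM and 143 CPM in HTO4/HTO9, 4.99-fold apart (3.86 to 6.55). The TAP1 to TAP2 ratio of UMIs therefore went from 0.369 (0.252 to 0.533) in HTO2/HTO9 to 3.75 (3.29 to 4.28) in HTO5/HTO8, which is 10.1 times. It was under 1 in HTO1/HTO10, HTO2/HTO9, HTO4/HTO8 and HTO7/HTO10 and above 1 in the other 20 samples.

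TAPBP (ENSG00000231925, chromosome 6, 33299694 to 33314387) had 45.2 CPM in HTO7/HTO10, a median of 137 CPM and 390 CPM in HTO3/HTO9, 8.64-fold apart (7.19 to 10.5). Its second highest level was 275 CPM in HTO5/HTO8. The genes listed as its loading partners, a list without the transporter and the class I chains, ranged less. CALR, a chaperone of class I heavy chains, had 424 to 894 CPM, CANX, its membrane-bound relative, 412 to 514 CPM, PDIA3, the disulfide isomerase bound to tapasin, 172 to 298 CPM, and HSPA5, a general chaperone of the compartment, 203 to 482 CPM. Summed, the 6 genes of that list differed 1.69-fold (1.63 to 1.76) at most, with 0 of 5 genes of sufficient level past 4-fold. TAPBPL, a tapasin relative that edits peptides, was too low for that count (2.52 to 19.9 CPM).

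The trimming enzymes were measured with few counts. ERAP1 (ENSG00000164307, chromosome 5, 96760810 to 96808100) had 1.53 CPM in HTO1/HTO10 (5 UMIs), a median of 12.9 CPM and 29.9 CPM in HTO3/HTO9. Its ratio of 19.5 (7.99 to 61.7) rested on HTO1/HTO10 and was 4.98 without it. ERAP2 (ENSG00000164308, chromosome 5, 96875939 to 96919716) had 4.17 CPM in HTO7/HTO10, a median of 16.9 CPM and 23.3 CPM in HTO4/HTO9, 5.60-fold apart (3.01 to 11.3). Together they had 8.58 to 49.8 CPM, 5.80-fold apart (3.82 to 9.08). With a floor of 2000 genes and a ceiling of 10% mitochondrial UMIs per cell, the range of ERAP1 was 35.9, the range of ERAP2 21.0 and the range of trimming enzymes 12.0. ERAP2 separated the samples mainly at the bottom: the 4 samples with the lowest interferon list had 4.17 to 7.05 CPM, and the other 20 had 10.9 to 23.3 CPM. ERAP2 was also 2.69 times (2.16 to 3.32) as high in a small second population of 141 cells, marked by KRT81, MTAP, CDKN2A and CDH1, as in the other 5157 cells (38.8 against 14.4 CPM). That population made up 0% to 4.39% of a sample, and the ERAP2 ratio was 4.70 without it. PSMB9 was lower in those cells, 128 against 324 CPM (ratio 0.393, 0.351 to 0.440). These levels pool cells over samples, and with the samples of the other cells weighted as in the second population the ratios were 2.60 for ERAP2 and 0.384 for PSMB9.

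By the range of log2(CPM + 10) over the hashtag samples, 6 of the 8 members with a mean of at least 20 CPM reached 4-fold, against 4.13% of 5767 genes of that level. PSMB10 (1.75 on the log2 scale) and TAP2 (1.98) stayed under it, TAP2 narrowly. All 8 of the 8 reached 2-fold, against 26.1% of the same genes. ERAP1 and ERAP2 were below that mean and were not counted. The median range was 2.44 for the 10 genes and 0.74 for all genes of that level.

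**Figure D2:**
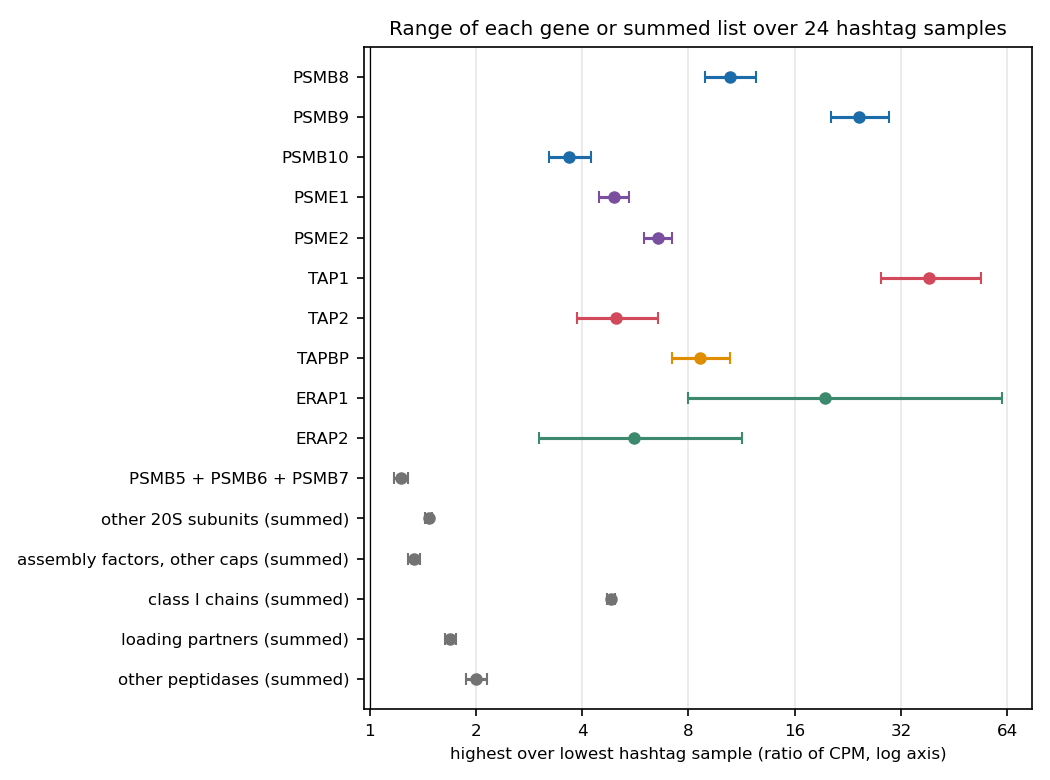
Highest over lowest hashtag sample (x axis, ratio of CPM on a log axis) for each of the 10 genes and for 6 summed lists of related genes. Bars are 95% conditional binomial intervals. TAP1 (38.4) and PSMB9 (24.4) lie furthest right with overlapping intervals, and the constitutive catalytic subunits (1.23) and other 20S subunits (1.47) lie near 1.

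Other genes of the same particles ranged less than the members as summed lists, though some single genes passed 2-fold. The constitutive catalytic subunits PSMB5, PSMB6 and PSMB7 had ratios of 1.37, 1.34 and 1.45, and a summed ratio of 1.23 (1.17 to 1.29). The 11 other 20S subunits summed to 4368 CPM at the lowest and 6415 CPM at the highest, 1.47-fold apart. By the range of log2(CPM + 10), 0 of 11 reached 4-fold and 2 of 11, PSMA6 and PSMA4, reached 2-fold. Their most abundant members were PSMA7 (781 to 1229 CPM), PSMA2 (625 to 1014 CPM), PSMB3 (528 to 844 CPM) and PSMA4 (374 to 789 CPM), and PSMA6 had the widest range (272 to 859 CPM, 3.16-fold apart). PSMA7 was lowest in HTO3/HTO9, the sample in which PSMA4 and PSMA6 were highest. Assembly factors and other caps had a summed ratio of 1.33 (1.29 to 1.38), and 1 of 8, PSMG1, reached 2-fold by the same measure. POMP, the maturation factor of the core, had 836 to 1362 CPM, PSMF1, a proteasome inhibitor, 97.6 to 133 CPM, and PSME3, the nuclear relative of the PA28 subunits, 70.9 to 139 CPM with its lowest level in HTO3/HTO9. PSMG3 (87.0 to 177 CPM) and PSMG1 (37.3 to 88.6 CPM), both assembly chaperones, were lowest in HTO5/HTO8.

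Among 8 other peptidases, 1 of 7 tested members reached 4-fold: LAP3, a cytosolic leucine aminopeptidase, with 73.6 to 514 CPM, 6.97-fold apart (6.05 to 8.07). NRDC, a metallopeptidase, had 93.3 to 131 CPM, NPEPPS, the puromycin-sensitive aminopeptidase, 48.3 to 87.3 CPM, TPP2, a large tripeptidyl peptidase, 29.5 to 51.4 CPM, and BLMH, bleomycin hydrolase, 7.56 to 27.5 CPM, the last lowest in HTO3/HTO9. The class I chains that receive the peptides summed to 2323 CPM at the lowest and 11198 CPM at the highest, 4.82-fold apart (4.70 to 4.95), and 5 of 5 tested members reached 4-fold. HLA-E had the widest range of these 5 (56.9 to 519 CPM, 9.11-fold apart), and HLA-B (7.96) and B2M (4.36) were among the others. HLA-F went from 2.76 to 65.3 CPM but was low in most samples (median 11.6 CPM). Reads of HLA genes can be shared between near-identical copies. NLRC5, a transcriptional activator of class I genes, had 1 UMI in HTO2/HTO9 (0.306 CPM), a median of 20.1 CPM and 28.7 CPM in HTO5/HTO9, 93.7-fold apart with a counting interval of 16.5 to 3735. The value rested on HTO2/HTO9 and was 20.7 without it.

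The exchange of catalytic subunits was followed as the inducible gene's share of the UMIs of its pair. This share describes transcripts and not particles, and its change over samples is read rather than its level. PSMB9 took 10.0% (8.38% to 11.8%) of the PSMB9 and PSMB6 UMIs in HTO2/HTO9, a median of 45.9% and 72.8% (71.2% to 74.4%) in HTO3/HTO9, and it held the majority in 10 of 24 samples. PSMB8 took 10.7% (9.23% to 12.4%) of the PSMB8 and PSMB5 UMIs in HTO1/HTO10, a median of 27.7% and 60.3% (58.2% to 62.4%) in HTO3/HTO9, and it held the majority in 4 samples. PSMB10 took 22.4% (20.1% to 24.9%) of the PSMB10 and PSMB7 UMIs in HTO4/HTO10, a median of 32.7% and at most 46.2% (44.2% to 48.3%) in HTO5/HTO9, a majority in 0 of 24 samples. The lowest PSMB10 share was in a different sample from those of PSMB8 and PSMB9. In the 4 samples with the lowest interferon list PSMB10 had 88.0 to 109 CPM, which is above its lowest levels elsewhere (77.5 CPM in HTO4/HTO10), whereas PSMB9 had 37.4 to 43.8 CPM there and at least 74.1 CPM in every other sample.

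**Figure D3:**
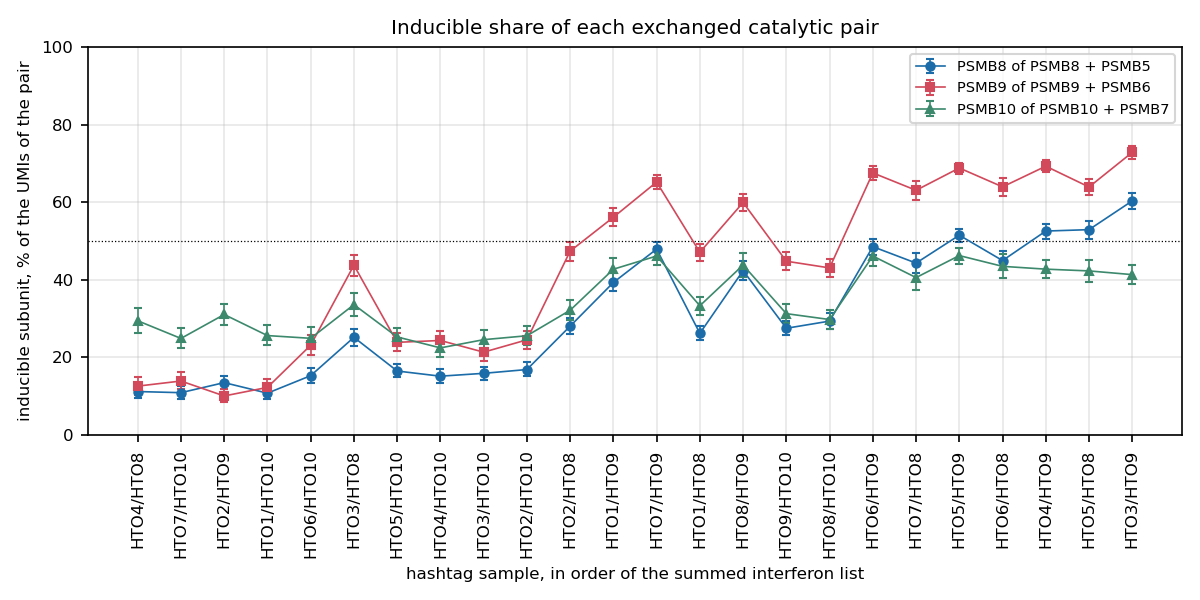
Share of the inducible subunit in the UMIs of each exchanged pair (y axis, percent) in 24 hashtag samples (x axis, ordered by the summed interferon list). Bars are exact 95% binomial intervals and the dotted line marks 50%. PSMB9 reaches 72.8% and PSMB8 60.3%, and PSMB10 stays at or below 46.2%.

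The members also differed in how many samples stood above their lowest one. TAP1 was at 2 times its lowest level or more in 20 of 24 samples, and in all 20 of these it was at 4 times or more. PSMB9 and TAPBP each had 19 samples at 2 times their lowest level. At 4 times or more were 15 samples for PSMB9 and 7 for TAPBP. PSMB8, PSME2 and TAP2 had 15 samples each at 2 times, PSME1 had 13 and PSMB10 had 10. ERAP2 had 20 such samples, and ERAP1 had 23, or 13 without HTO1/HTO10. In the 4 samples with the lowest interferon list TAP1 had 12.6 to 22.4 CPM, against at least 55.0 CPM in every other sample. TAPBP had 45.2 to 68.4 CPM there against at least 83.2 CPM, and TAP2 28.6 to 42.7 CPM against at least 47.6 CPM. PSMB8 had 50.6 to 66.7 CPM against at least 73.7 CPM, and PSMB9 and ERAP2 were likewise lower there. These 4 samples overlapped the others for PSMB10, PSME1, PSME2 and ERAP1. How many of all genes lay lower in these 4 samples was not counted, so the split is a description only.

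The 7 samples that combine HTO10 with HTO1 to HTO7 showed these differences at low member levels. This view was chosen after the data were seen, and the tags are not tied to a condition. In these samples the interferon list spanned 324 CPM (HTO7/HTO10) to 2358 CPM (HTO2/HTO10), 7.27-fold apart (6.79 to 7.78). TAP1 had 16.7 to 76.6 CPM there, 4.59-fold apart (3.37 to 6.39). TAPBP had 45.2 to 115 CPM, 2.54-fold apart (2.08 to 3.11), and PSMB9 39.8 to 90.2 CPM, 2.26-fold apart (1.84 to 2.79). PSMB8 had a ratio of 1.61 (1.33 to 1.95) and TAP2 one of 1.33 (1.06 to 1.67). PSME2 (242 to 304 CPM, 1.26), PSMB10 (77.5 to 96.6 CPM, 1.25) and PSME1 (153 to 184 CPM, 1.21) were nearly level, and the other 20S subunits had a ratio of 1.08. In the 7 samples that combine HTO9 with HTO1 to HTO7, with an interferon list of 331 to 16665 CPM, the ratios were 38.4 for TAP1, 24.4 for PSMB9, 8.17 for TAPBP, 7.95 for PSMB8, 6.05 for PSME2, 4.27 for PSME1, 4.20 for TAP2 and 2.61 for PSMB10. With HTO8 in place of HTO9 they were 28.6 for TAP1, 13.4 for PSMB9, 6.55 for PSMB8, 5.59 for TAPBP, 4.91 for TAP2, 4.51 for PSME2, 2.80 for PSME1 and 2.14 for PSMB10.

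The level of TAPBP followed the interferon list closely. The list left 4 samples apart at 376 CPM or below (HTO1/HTO10, HTO2/HTO9, HTO4/HTO8 and HTO7/HTO10), and the other 20 lay between 1431 and 16665 CPM. Over these 20 samples the log2 levels of TAPBP and the list had r = 0.980 and rho = 0.985, and r was 0.979 over 18 samples without the 2 farthest. The samples share a pool and a total of UMIs, and no p is given. ERAP1 had r = 0.842 and ERAP2 r = 0.699 with the list over the same samples (rho = 0.871 and 0.761, and r = 0.827 and 0.673 over 18). The other 7 members fell into separate clusters among the 20 samples, so that no r is given for them.

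**Figure D4:**
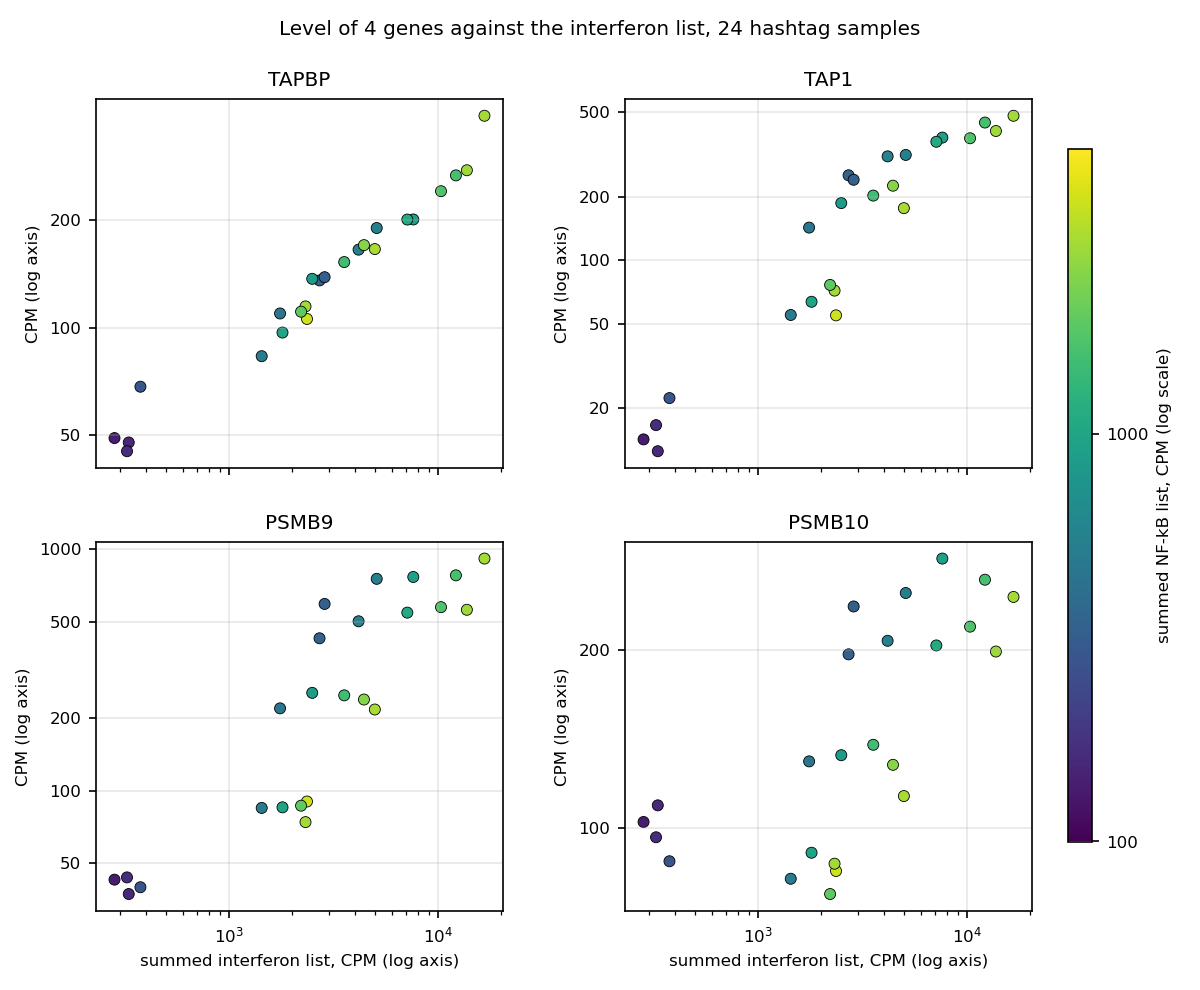
CPM of TAPBP, TAP1, PSMB9 and PSMB10 (y axes, log) against the summed interferon list (x axes, CPM, log) in 24 hashtag samples, coloured by the summed NF-κB list. TAPBP lies close to 1 line, while PSMB9 and PSMB10 lie in several bands at like levels of the interferon list.

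Samples with like levels of the interferon list were therefore set side by side. Pairs whose list levels differed by at most 10% numbered 12 and involved 16 samples, some of them more than once, a rule chosen after the data were seen. In each pair the sample with the higher sum of the 10 genes was divided by the other, which favours ratios above 1 by construction. It does so most for members that weigh most in the sum, such as PSME2 (mean of 686 CPM), PSME1 (363 CPM) and PSMB9 (340 CPM). Ratios near 1 are in turn favoured for a gene that follows the matching list, as TAPBP did. How unlike the members were is thus partly shaped by the rule and is given as a description only. TAPBP stayed between 0.954 and 1.29, and ERAP2 between 0.777 and 1.53 with all 12 intervals holding 1. PSMB9 went from 0.822 to 3.47, TAP1 from 0.718 to 3.39, PSMB8 from 0.965 to 2.71, PSME2 from 0.935 to 2.53, PSME1 from 1.00 to 2.22, PSMB10 from 1.03 to 2.20 and TAP2 from 0.796 to 2.02. ERAP1 went from 0.797 to 2.75 on few counts.

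HTO6/HTO9 and HTO8/HTO10 made up the pair with the largest PSMB9 ratio. Their interferon lists stood at 5084 and 4979 CPM. PSMB9 was 752 CPM in the first and 217 CPM in the second, 3.47-fold apart (3.20 to 3.77). The ratios were 2.71 for PSMB8, 2.53 for PSME2, 2.22 for PSME1 and 2.20 for PSMB10, 1.78 (1.61 to 1.98) for TAP1 and 1.75 for TAP2. TAPBP had 190 and 166 CPM, 1.15-fold apart (1.02 to 1.29), and ERAP2 19.0 and 19.5 CPM. HTO2/HTO8 and HTO2/HTO10, at 2498 and 2358 CPM of the list, had the largest TAP1 ratio: TAP1 was 187 and 55.0 CPM, 3.39-fold apart with a lower bound of 2.88. PSMB9 was 254 and 90.2 CPM there (2.81), PSME2 646 and 269.9 CPM (2.39), PSMB10 133 and 84.7 CPM (1.57), and TAPBP 137 and 106 CPM (1.29). Most of the list sum of HTO2/HTO10 was IRF1, at 1715 CPM the highest level of that gene in any sample. The match of this pair therefore rests largely on 1 gene. With samples matched on the geometric mean of the list, the largest TAP1 ratio was 2.60. The pair of HTO3/HTO8 and HTO5/HTO10, at 1752 and 1800 CPM of the list, had 219 and 85.3 CPM of PSMB9 (2.57), 143 and 63.8 CPM of TAP1 (2.24) and 109 and 96.8 CPM of TAPBP (1.13).

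The NF-κB list stood the other way in the pairs that differed most in PSMB9. In the 5 pairs with a PSMB9 ratio of 2 or more, the sample with less PSMB9 had more than 2 and up to 5.60 times as much of the NF-κB list. In all 5 the sample with less PSMB9 carried HTO10 and the other did not, and HTO2/HTO8 was in 2 of the 5, so that the list and this tag cannot be told apart here. In the pair of HTO6/HTO9 and HTO8/HTO10 that list stood at 533 and 2986 CPM. TAP1 ratios in the 5 pairs were 1.38 to 3.39 and TAPBP ratios 0.971 to 1.29. In the other 7 pairs PSMB9 ratios were 0.822 to 1.68, and 1 of them had an NF-κB list at least 1.5 times as high in the sample with the lower sum. The part of the NF-κB list, of dose and of time in the member levels was not tested.

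**Figure D5:**
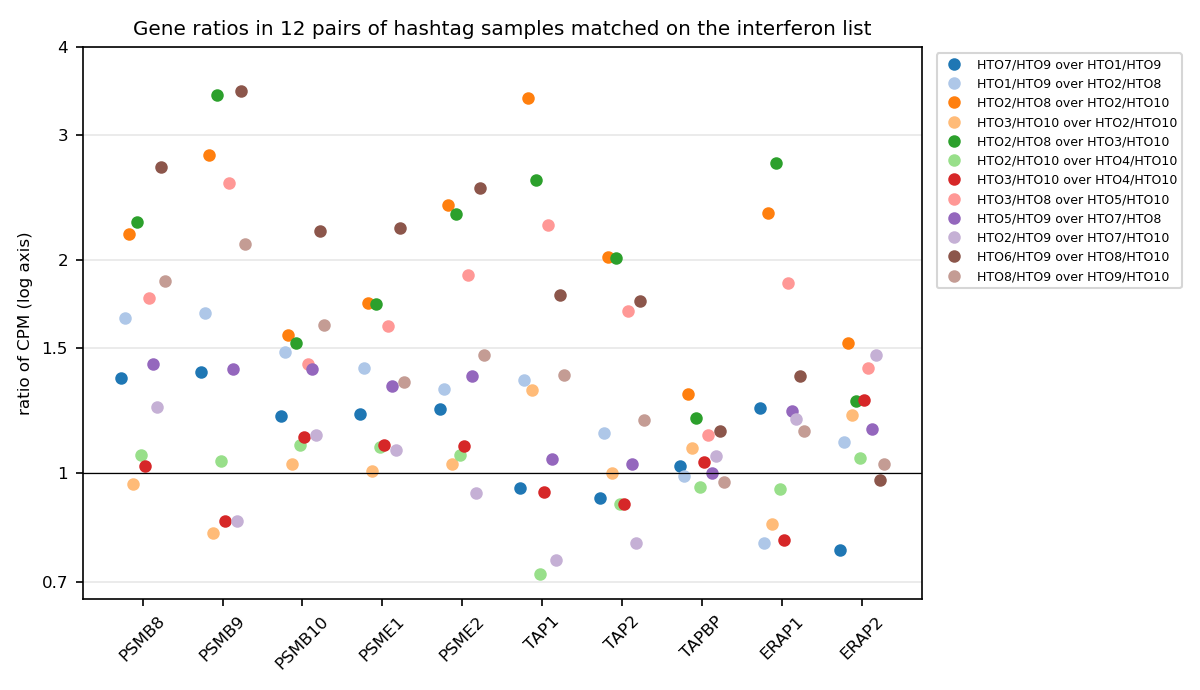
Ratio of CPM (y axis, log) for each of the 10 genes (x axis) in 12 pairs of hashtag samples whose interferon lists differed by at most 10%, with a colour for each pair. TAPBP stays between 0.954 and 1.29, and PSMB9 spreads from 0.822 to 3.47.

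Within a sample the steps accordingly stood in different proportions. The PSMB9 to TAPBP ratio of UMIs was 0.583 (0.466 to 0.727) in HTO1/HTO10 and 4.28 (3.86 to 4.75) in HTO7/HTO9, which is 7.34 times. TAP1 to TAPBP went from 0.263 (0.182 to 0.373) in HTO2/HTO9 to 1.90 (1.74 to 2.08) in HTO5/HTO9. PSMB9 to TAP1 varied less, from 1.03 (0.869 to 1.22) in HTO3/HTO10 to 3 (2.02 to 4.56) in HTO4/HTO8. PSMB9 to PSMB8 went from 0.560 (0.445 to 0.702) in HTO2/HTO9 to 1.76 (1.63 to 1.89) in HTO6/HTO9.

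Single cells were compared after thinning each to 3000 UMIs (5261 cells, 37 shallower cells left out). PSMB9 had a UMI in 16 of 164 cells of HTO4/HTO8 (9.76%, 5.68% to 15.4%) and in 208 of 227 cells of HTO4/HTO9 (91.6%, 87.2% to 94.9%). Before thinning the shares were 40.6% and 99.6%. The 8.37% of HTO4/HTO9 cells without a PSMB9 UMI compare with 9.10% under Poisson sampling at the mean of that sample. This holds for the highest sample and not for all. Cells with a PSMB9 UMI were 69.5% in HTO1/HTO9 against 76.2% by Poisson sampling, and 41.0% in HTO8/HTO10 against 46.2%. In HTO6/HTO9 they were 90.2% against 89.7%. TAP1 had a UMI in 2.44% (0.668% to 6.13%) of HTO4/HTO8 cells and in 81.7% (76.3% to 86.3%) of HTO3/HTO9 cells, where 18.3% without one compare with 20.7% by Poisson sampling. PSMB10, with 51.9% (45.7% to 58.1%) at its highest in HTO5/HTO9, had 48.1% of cells without a UMI against 43.0%. ERAP1 reached 8.54% (5.36% to 12.8%) at most. No cell type that should lack these genes was present, so the share given by free RNA in the droplets could not be measured, and it is contained in the shares of the lowest samples.

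Variation over cells was expressed as the variance of UMIs divided by that of Poisson sampling at each cell's depth. Of the 10 genes, 7 had a ratio of 1.5 or more over all cells, against 8.05% of 10039 genes seen in at least 5% of cells. Such a ratio tends to grow with the level of a gene, and the 10039 genes were not matched for level. The members also differ in level, with PSME2 seen in 97.0% of cells and ERAP1 in 15.2%, so that their order partly reflects abundance. PSME2 (5.85) and PSMB9 (5.16) led, followed by PSMB8 (3.02), TAP1 (2.98), PSME1 (2.84), TAPBP (1.72) and PSMB10 (1.67). Within hashtag samples 2 of 10 remained at 1.5 or more, PSME2 (2.40) and PSMB9 (1.85), against 6.49% of genes, and PSME1 was just below (1.497). Of the excess, 80.1% lay between samples for TAP1, 80.0% for PSMB8, 79.6% for PSMB9, 79.4% for TAP2 and 69.4% for TAPBP. For ERAP1 and ERAP2 the shares were 61.6% and 19.8%, but of little excess (ratios of 1.08 and 1.13). For the constitutive PSMB5 (ratio of 1.27) the share was 9.18%.

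Summed over the 10 genes, thinned cells had a median of 2 UMIs in HTO1/HTO10, HTO2/HTO9, HTO4/HTO8 and HTO7/HTO10 and of 15 UMIs in HTO3/HTO9, where the lowest cell had 4. Within samples the member sum of a cell had a median r of 0.202 with its interferon list sum (positive in 24 of 24 samples), 0.285 with its class I chain sum, 0.120 with its sum of the 11 other 20S subunits (positive in 21 of 24 samples) and 0.0673 with its NF-κB list sum. All 45 pairs of members had a median r under 0.1 within samples at this depth, which sparse counts limit.

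The genes most like the members over the hashtag samples were chosen by r over all 24 and are described within both clusters of samples that the member sum forms (15 at 1723 CPM or more and 9 at 968 CPM or less). UBE2L6, an enzyme that attaches ISG15, had r = 0.965 over the 15 and 0.921 over the 9 with the sum of the 10 genes. IFI35 had 0.982 and 0.542, WARS 0.927 and 0.944, EPSTI1 0.942 and 0.655, and XAF1 0.903 and 0.926. Among the genes nearest TAP1 were HLA-E (0.955 and 0.987) and GBP1 (0.857 and 0.981). Those nearest TAPBP were GBP1 (0.958 and 0.985), IFI16 (0.902 and 0.979) and IL32 (0.935 and 0.966). PSMB8 was nearest PSME1 (0.987 and 0.707), PSMB10 nearest VAMP5 (0.970 and 0.345), and ERAP2 nearest IRF9 (0.407 and 0.952).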

How the data were processed

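The authors deposited 1 matrix of UMI counts for genes and 10 hashtags. Per the file headers, Cell Ranger 5.0.1 wrote it. The submitters' processing notes name Cell Ranger 2.1.1 and GRCh38. Strand use in counting and the annotation are not stated. Of 10660 distinct barcodes, 6408 passed 1000 detected genes and a ceiling of 20% on mitochondrial UMIs. A hashtag sample is a tag pair leading in 100 barcodes or more, and a cell joined it if its second tag was at least 3 times the next, so that doublets of different samples were dropped and others were not sought. UMIs were summed per sample and scaled to CPM. Ranges used log2(CPM + 10) of genes averaging 20 CPM or more. Ratios have conditional binomial intervals, shares exact binomial ones and counts Poisson ones. The genes and lists were chosen with earlier results of these data known. Named genes were the 10 members, the most abundant and widest-ranging genes of related lists, and the most like genes; some of these are not reported here. A gap was wide above 0.243 of a range. No test was run, because the conditions of the samples are not known. Python 3.11.15, numpy 2.4.6 and scipy 1.17.1 were used, and the scripts were tested on simulated data. Alternatives were another cell filter or none, tag margins of 2 and 5, size factors, per-cell means, other pseudocounts and means, leaving out the second population and each sample in turn, and, chosen after seeing the data, other ways to match samples.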

Additional observations from a re-analysis of the deposited data

How the results depend on the processing

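The count of 6 members at 4-fold was 5 to 7 under 11 settings and 6 without any 1 hashtag sample. With a floor of 2000 genes and a ceiling of 10% mitochondrial UMIs per cell, the range of catalytic subunits was 10.9, the range of activator subunits 6.04 and the range of trimming enzymes 12.0. With median-of-ratios size factors they were 10.4 for the catalytic subunits and 6.16 for the activator, and a tag margin of 2 gave 8.55 for the catalytic subunits. Leaving out each sample gave 8.51 to 9.46 for the catalytic subunits, 5.16 to 5.60 for the activator, 13.4 to 14.6 for transport, 6.09 to 8.64 for loading and 4.48 to 5.80 for trimming. Under the stricter filter on cells the range of PSMB9 was 32.7, the range of TAP1 51.4, the range of ERAP1 35.9 and the range of ERAP2 21.0. The cause was not tested. Matching samples within 5% or 20%, on 6 genes of the list alone or on the geometric mean of the list kept the largest TAPBP ratio between 1.15 and 1.56, while that of PSMB9 was 3.47 to 6.94 and that of TAP1 2.24 to 5.63. No paired analysis was possible because the samples of the pool carry no replicate numbers. ERAP1, with 5 to 79 UMIs per sample, and ERAP2, with 12 to 77, are limited by depth, and 1 culture per condition leaves the spread between cultures unmeasured.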
